A study of Mus musculus with 8 samples.

Results

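The genes described here are 10 genes that build, load and switch on MHC class I, the surface molecules that show peptides from inside a cell to T cells and natural killer (NK) cells. They were chosen by name, and all 10 were found among the 57180 genes of a table of RNA-sequencing counts from sorted mouse regulatory T (Treg) cells, the T cells that restrain immune responses. The table holds 8 libraries, each from sorted Treg cells: 5 carry the label chimera WT and 3 the label chimera KO, and the series title concerns copper and Treg suppression. The labels give neither the deleted gene nor the strain, age, tissue, treatment or origin of the chimeras, and the groups go here by their labels, WT-labelled and KO-labelled. They do not tie a library to 1 animal, so each p measures the spread between these libraries, which may be technical.

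A class I molecule is a polymorphic heavy chain joined to the invariant light chain beta-2-microglobulin. Proteasomes, in activated cells partly immunoproteasomes, cut proteins into peptides, and the TAP transporter carries these into the endoplasmic reticulum, where aminopeptidases trim them and a loading complex places them on the heavy chain. Nearly every nucleated cell makes class I, lymphocytes make much of it, and interferon together with the transactivator NLRC5 raises its genes.

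Library totals ran from 4.31 M to 17.98 M counts, and 8250 to 14318 genes had at least 10 counts in a library. Single-gene levels below are CPM after TMM scaling (normalised CPM), and TMM factors, which multiply the library total, ran from 0.40 in WT-labelled replicate 4 to 1.49 in KO-labelled replicate 2. A low factor raises a library's normalised CPM, so CPM of the plain library total (plain CPM) is given beside it for the 10 genes and some others. Marker levels are given as normalised CPM only. Differences are log2 changes of KO-labelled minus WT-labelled libraries with their standard error (SE) from edgeR's quasi-likelihood test, with p adjusted over 14755 genes. The 5 Treg markers Foxp3, Il2ra, Ikzf2, Ctla4 and Tnfrsf18 had counts in all 8 libraries (Foxp3 from 1.26 to 41.9), with a summed level of 2186 to 6011 in the WT-labelled and 635 to 2562 in the KO-labelled libraries. WT-labelled replicates 4 and 5 stood apart. Foxp3 was at 3.09 and 1.26 there, against 11.9 to 41.9 in WT-labelled replicates 1 to 3. In KO-labelled replicates 1 to 3 it was at 26.6, 2.69 and 24.2. Ikzf2 was at 81.1 in WT-labelled replicate 4, against 1089 to 4633 in the other WT-labelled libraries, while Ctla4 (934) and Tnfrsf18 (1356) were highest there. The sum of 5 T cell markers (Cd3e, Cd3d, Cd3g, Cd4 and Trac) was 15936 in WT-labelled replicate 4 and 6518 in replicate 5. It was 1685 to 2213 in WT-labelled replicates 1 to 3 and 867 to 1411 in the KO-labelled libraries. Of these markers Cd4 alone was lowest in WT-labelled replicate 4, at 86.3 against 159 to 239 in the other WT-labelled libraries. In replicate 4 the summed level of 5 B cell markers was 3107 against 199 to 554 in the other WT-labelled and 78.2 to 194 in the KO-labelled libraries. The sum of 7 NK and cytotoxic markers was 4276 there against 48.4 to 122 in the other WT-labelled and 4.49 to 63.2 in the KO-labelled libraries, while the NK marker Ncr1 was at 0 in all 8 libraries. In replicate 5 the sum of 5 red cell markers was 9102, against at most 22.2 in any other library. In bulk samples, fewer cells of a type and less RNA per cell cannot be told apart.

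Class I genes are known for shared promoter motifs, so the RefSeq promoter windows (250 bases before to 50 bases after the start, GRCm38.p6) were searched on both strands, and 8 of the 10 genes had one; Tap2 and Nlrc5 were not matched. The windows of the light chain gene and of 3 heavy chain genes are shown, since these are the most abundant of the 10. They lie at chr2:122147437-122147736 on the plus strand for B2m, chr17:34000298-34000597 on the minus strand for H2-K1, chr17:35262844-35263143 on the plus strand for H2-D1 and chr17:35438905-35439204 on the plus strand for H2-Q7. Capitals mark 5 motifs on either strand: the CCAAT box, the cAMP response element core TGACG, the interferon core GAANNGAAA, a wider form of that core with 1 more A before its gap, and the NF-kappaB motif GGGATTCCC.
B2m: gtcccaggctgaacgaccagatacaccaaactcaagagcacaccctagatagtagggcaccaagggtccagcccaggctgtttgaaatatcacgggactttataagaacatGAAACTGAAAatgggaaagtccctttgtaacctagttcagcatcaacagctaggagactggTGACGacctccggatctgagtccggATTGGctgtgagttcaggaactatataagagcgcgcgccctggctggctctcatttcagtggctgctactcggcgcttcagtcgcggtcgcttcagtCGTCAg
H2-K1: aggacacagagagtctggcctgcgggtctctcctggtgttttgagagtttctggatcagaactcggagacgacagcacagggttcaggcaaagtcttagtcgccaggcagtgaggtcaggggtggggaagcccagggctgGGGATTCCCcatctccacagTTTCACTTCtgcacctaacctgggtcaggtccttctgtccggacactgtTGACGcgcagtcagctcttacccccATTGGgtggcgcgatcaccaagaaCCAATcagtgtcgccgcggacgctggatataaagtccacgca
H2-D1: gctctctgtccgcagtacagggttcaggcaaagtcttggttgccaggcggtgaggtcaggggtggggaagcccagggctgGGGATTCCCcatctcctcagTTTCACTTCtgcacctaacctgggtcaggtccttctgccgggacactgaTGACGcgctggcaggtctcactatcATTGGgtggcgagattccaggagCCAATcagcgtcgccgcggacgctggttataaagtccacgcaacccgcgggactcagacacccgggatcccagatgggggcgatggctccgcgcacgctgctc
H2-Q7: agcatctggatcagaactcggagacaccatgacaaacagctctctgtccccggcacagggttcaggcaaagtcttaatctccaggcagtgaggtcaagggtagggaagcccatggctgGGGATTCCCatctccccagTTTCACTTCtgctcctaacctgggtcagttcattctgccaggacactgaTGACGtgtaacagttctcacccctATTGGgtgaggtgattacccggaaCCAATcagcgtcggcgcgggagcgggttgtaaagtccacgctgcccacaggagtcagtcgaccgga

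In H2-K1, H2-D1 and H2-Q7 the motifs follow each other in 1 order: GGGATTCCC, a core that NF-kappaB factors bind, then GAANNGAAA, the core bound by interferon regulatory factors, then TGACG, the core of cAMP response elements, and then a pair of CCAAT boxes. B2m holds the wider form of the interferon core, then a cAMP element core, a CCAAT box and, past the start, another cAMP element core, and has no match to GGGATTCCC, the 1 spelling of an NF-kappaB motif that was searched. The CCAAT box, the cAMP element core, the narrow interferon core and the NF-kappaB motif occur together, in these spellings, in 4 of 32851 windows (0.0122%), which are H2-D1, H2-Q7 and 2 windows of H2-K1. Singly, CCAAT was in 7 of the 8 genes against 37.4% of all windows, TGACG in 5 against 20.8%, GAANNGAAA in 3 against 7.52%, the wider form in 3 against 3.44% and GGGATTCCC in 3 against 0.353%. The motifs were chosen with these sequences in view, and a match describes the letters only.

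By level per kilobase of gene length, the 10 genes spread from the light chain down to Erap1 and Tap2. B2m had 17076 ± 17884 normalised CPM per kilobase in the WT-labelled (SD, n = 5) and 2891 ± 650 in the KO-labelled libraries (SD, n = 3). Next came the classical heavy chains H2-K1 (2307 ± 1000.2 and 1012 ± 353) and H2-D1 (1181 ± 1098 and 399 ± 148). The nonclassical heavy chains H2-Q7 (499 ± 126 and 227 ± 170) and H2-T23 (418 ± 481 and 169 ± 23.7) followed. B2m stood above H2-K1, H2-K1 above H2-D1, H2-D1 above H2-Q7 and H2-T23 above Tap1 in 8 of 8 libraries each, while H2-Q7 stood above H2-T23 in 6 of 8. Among the lower genes Tap1 (61.7 ± 62.3 and 46.5 ± 29.97), Tapbp (35.4 ± 19.9 and 33.9 ± 13.3) and Nlrc5 (36.6 ± 4.91 and 16.4 ± 5.32) had no fixed order: Tap1 exceeded Tapbp in 4 of 8 libraries and Tapbp exceeded Nlrc5 in 5 of 8. Erap1 (13.2 ± 17.3 and 10.7 ± 8.10) and Tap2 (11.1 ± 10.12 and 9.04 ± 2.33) were lowest, with Erap1 above Tap2 in 4 of 8.

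**Figure D1:**
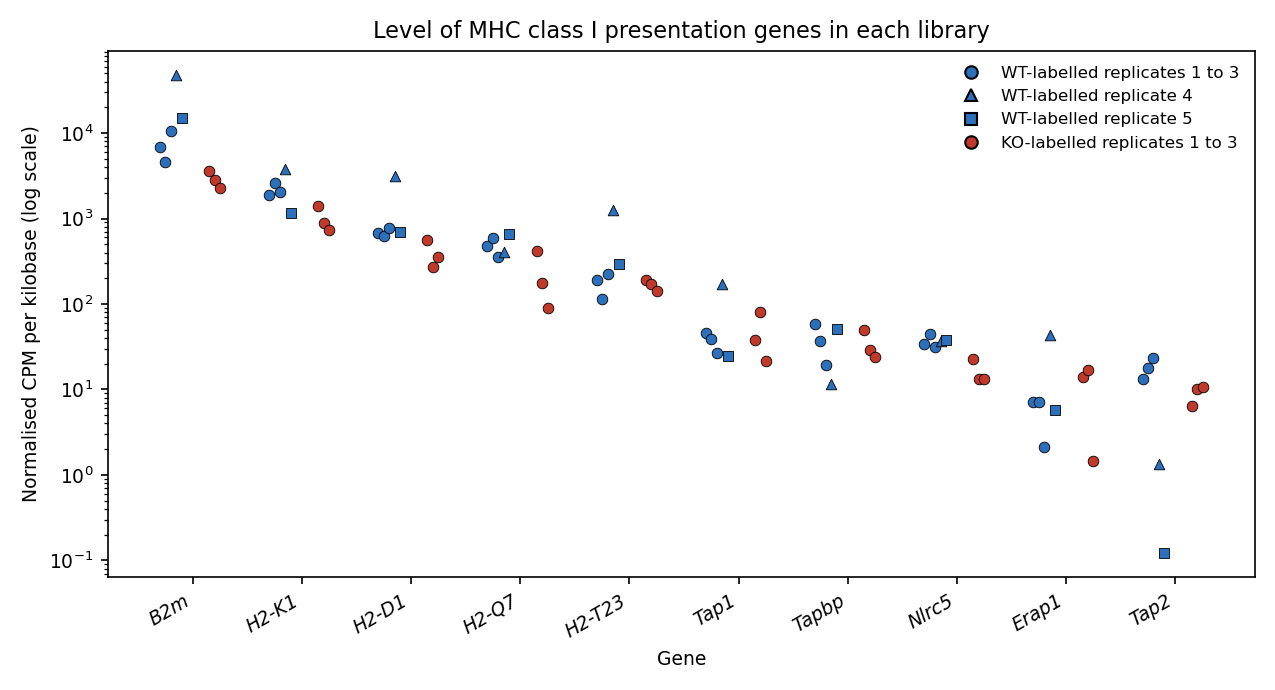
Level of the 10 class I presentation genes in each library, as normalised CPM per kilobase on a log axis; each point is 1 library, blue for WT-labelled (triangle for replicate 4, square for replicate 5) and red for KO-labelled. B2m, H2-D1 and Nlrc5 have all 3 KO-labelled points below all 5 WT-labelled ones, and Tap2 is lowest in WT-labelled replicates 4 and 5.

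All 10 genes had a negative log2 change, and edgeR called 0 of them at an adjusted p under 0.05, as it called 0 of all 14755 genes tested (0.0%). Negative changes made up 56.8% of all genes tested. The 10 genes had a median change of −1.15, where that of all genes was −0.42 and that of protein-coding genes −0.87. At an unadjusted p under 0.05, B2m, H2-K1 and H2-D1 were lower, 3 of 10, against 6.43% of all genes that were lower at that p, and 0 were higher, against 7.96%. DESeq2 called 4 lower, B2m, H2-K1, H2-Q7 and Nlrc5, against 10.0% of all genes called lower, and 0 higher, against 6.4%. It gave no adjusted p for H2-D1 and Tap1. Each KO-labelled library lay below each WT-labelled one for 3 of the 10 genes, B2m, H2-D1 and Nlrc5, against 4.49% of all genes, and above for 0, against 13.2%. On plain CPM this held for B2m alone, against 1.67% of all genes. The members were picked with earlier results of these data known, so these shares describe them and test nothing.

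With library totals the chain genes and Nlrc5 stayed negative, and Tap1, Tap2, Tapbp and Erap1 did not. Scaled by library totals, 6 of the 10 changes were negative, against 45.3% of all genes, with a median of −0.29 against 0.21 over all genes: B2m, the 4 heavy chain genes and Nlrc5. Without WT-labelled replicates 4 and 5, 8 of 10 were negative against 53.5% of all genes, with a median of −0.87 against −0.15, and 5 of 10, now including H2-K1 and Tap2 but with the other 3 as before, had no overlap between groups against 10.5% of all genes. On plain CPM that count was 4, against 6.96%. Neither alternative led edgeR to call a member.

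**Figure D2:**
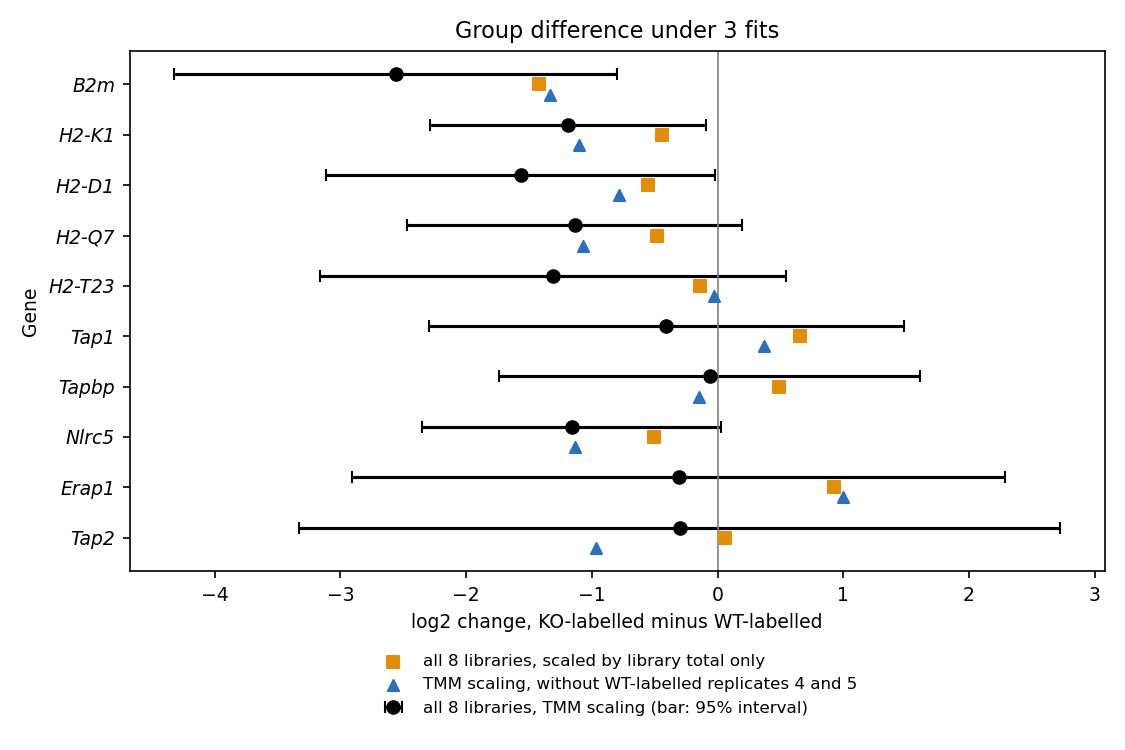
The log2 change of each of the 10 genes, KO-labelled minus WT-labelled, with all libraries and TMM scaling (black, bar: 95% interval), with library totals only (orange) and without WT-labelled replicates 4 and 5 (blue). The changes of B2m, H2-K1, H2-D1, H2-Q7 and Nlrc5 are below 0 in all 3 fits, while Erap1 and Tap1 pass to the positive side in both alternatives.

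B2m (ENSMUSG00000060802, chromosome 2, 122147686 to 122153083), the gene of the light chain that all class I molecules need to fold, was among the most abundant transcripts of every library. By counts it ranked between 2 and 9 of all genes in the WT-labelled libraries and at 9, 18 and 38 in KO-labelled replicates 1 to 3. Normalised CPM was 5913, 3986, 9065, 41521 and 12942 in WT-labelled replicates 1 to 5 and 3067, 2440.3 and 1952 in KO-labelled replicates 1 to 3. No KO-labelled library reached the lowest WT-labelled one, replicate 2. Plain CPM kept that order, at 6729, 4311, 9652, 16442 and 8798 against 4137, 3573 and 2528. The log2 change was −2.56 (SE 0.79, 95% interval −4.32 to −0.80, adjusted p = 0.325 in edgeR and 0.0118 in DESeq2). It was −1.68 without WT-labelled replicate 4, −1.33 without replicates 4 and 5, and −1.42 with library totals, each with an adjusted p above the threshold. The whole gene lies inside the span of Patl2 on the opposite strand, which had at most 1 count in a library. Other overlaps have partners with more counts, and the kit keeps no strand. On the opposite strand, H2-T23 lies wholly inside the antisense gene A930015D03Rik (225 to 1600 counts). Erap1 so overlaps Cast by 834 bases (3167 to 9224 counts) and Nlrc5 overlaps 9330175E14Rik by 748 bases (1 to 799 counts). Tapbp overlaps Zbtb22 by 3422 bases on the same strand (0 to 137 counts). These are overlaps of whole gene spans, and how many reads are shared was not tested.

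H2-K1 (ENSMUSG00000061232, chromosome 17, 33996017 to 34000347), 1 of the classical heavy chains that present to CD8 T cells, had normalised CPM of 3069.5, 4211, 3325, 6212 and 1860.2 in WT-labelled replicates 1 to 5, against 2282, 1441 and 1191 in KO-labelled replicates 1 to 3. The groups overlapped through WT-labelled replicate 5, the lowest of its group. On plain CPM, at 3494, 4555, 3541, 2459.9 and 1265 against 3077, 2110.3 and 1543, they overlapped through WT-labelled replicates 4 and 5. The log2 change was −1.19 (SE 0.49, adjusted p = 0.327 in edgeR, 0.0446 in DESeq2), −1.10 without WT-labelled replicates 4 and 5, and −0.45 with library totals.

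H2-D1 (ENSMUSG00000073411, chromosome 17, 35262730 to 35267499) is the other classical heavy chain gene. Normalised CPM was 1170, 1077, 1348, 5480.0 and 1227 in WT-labelled replicates 1 to 5, against 981, 478 and 626 in KO-labelled replicates 1 to 3, with the highest KO-labelled value just under the lowest WT-labelled one. On plain CPM the groups overlapped, with 1331, 1165, 1435, 2170 and 834 against 1323, 701 and 811. WT-labelled replicate 4 was the highest on both scales, and the log2 change went from −1.57 (SE 0.69, adjusted p = 0.344) to −0.79 without it.

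The nonclassical heavy chains differed in which libraries were high. H2-Q7 (ENSMUSG00000060550, chromosome 17, 35439155 to 35443773), which encodes a Qa-2 antigen, had 710, 885, 537, 609 and 991 normalised CPM in WT-labelled replicates 1 to 5, against 623, 261 and 134 in KO-labelled replicates 1 to 3. Only KO-labelled replicates 2 and 3 were below the WT-labelled range, and replicate 1 lay within it. On plain CPM, at 808, 957, 572, 241 and 674 against 841, 382 and 173, only KO-labelled replicate 3 was below it. The log2 change, on TMM scaling, was −1.14 (SE 0.60, adjusted p = 0.379 in edgeR). H2-T23 (ENSMUSG00000067212, chromosome 17, 36029773 to 36032855) encodes Qa-1, the ligand through which cells restrain NK cells that carry CD94 and NKG2A. It had 278, 168, 326, 1871 and 436 normalised CPM in WT-labelled replicates 1 to 5, against 279, 255 and 210.3 in KO-labelled replicates 1 to 3. Plain CPM was 316, 181, 347, 741 and 296 against 376, 374 and 272. The KO-labelled libraries were thus inside the WT-labelled range, and the log2 change of −1.31 (SE 0.83, adjusted p = 0.43) became −0.28 without WT-labelled replicate 4 and −0.03 without replicates 4 and 5.

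The H2 genes are a family of close copies, so the split of reads among them is uncertain. Of all 75-base windows in its longest coding transcript, H2-Q7 shared 21.7% with another gene's transcripts, most often H2-Q6, H2-T23 shared 13.1%, H2-D1 6.90% and H2-K1 1.55%, while B2m, Tap1, Tap2, Nlrc5 and Erap1 shared 0%. H2 alleles also differ between mouse strains, and the reference is C57BL/6J. Summed over the 31 genes of the table named H2-K, D, L, Q, T or M and a number, normalised CPM was 5872, 7233, 6637, 15852 and 5070.2 in WT-labelled replicates 1 to 5, against 4846, 2876 and 2506 in KO-labelled replicates 1 to 3. These sums did not overlap either. On plain CPM the sums were 6683, 7822, 7066, 6277 and 3447 against 6536, 4211 and 3246, and they overlapped. H2-K1 and H2-D1 together held 70.1 ± 5.28% of heavy chain counts in the WT-labelled and 68.9 ± 3.17% in the KO-labelled libraries.

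The balance of heavy to light chain transcripts needs no scaling, since both come from 1 library. H2-K1 plus H2-D1 counts per base stood at 0.373, 0.694, 0.268, 0.145 and 0.123 of those of B2m in WT-labelled replicates 1 to 5, and KO-labelled replicates 1 to 3 gave 0.553, 0.410 and 0.482. The KO-labelled ratios lay inside the WT-labelled range and close together, and the 2 lowest were in WT-labelled replicates 4 and 5. The log2 ratio was −1.93 ± 1.02 (SD, n = 5) and −1.06 ± 0.22 (SD, n = 3), a difference of 0.87 that did not pass an exact two-sided permutation test over 56 splits (p = 0.196, smallest possible 0.0179). It was 0.22 without WT-labelled replicates 4 and 5 (exact permutation p = 0.6 over 20 splits).

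**Figure D3:**
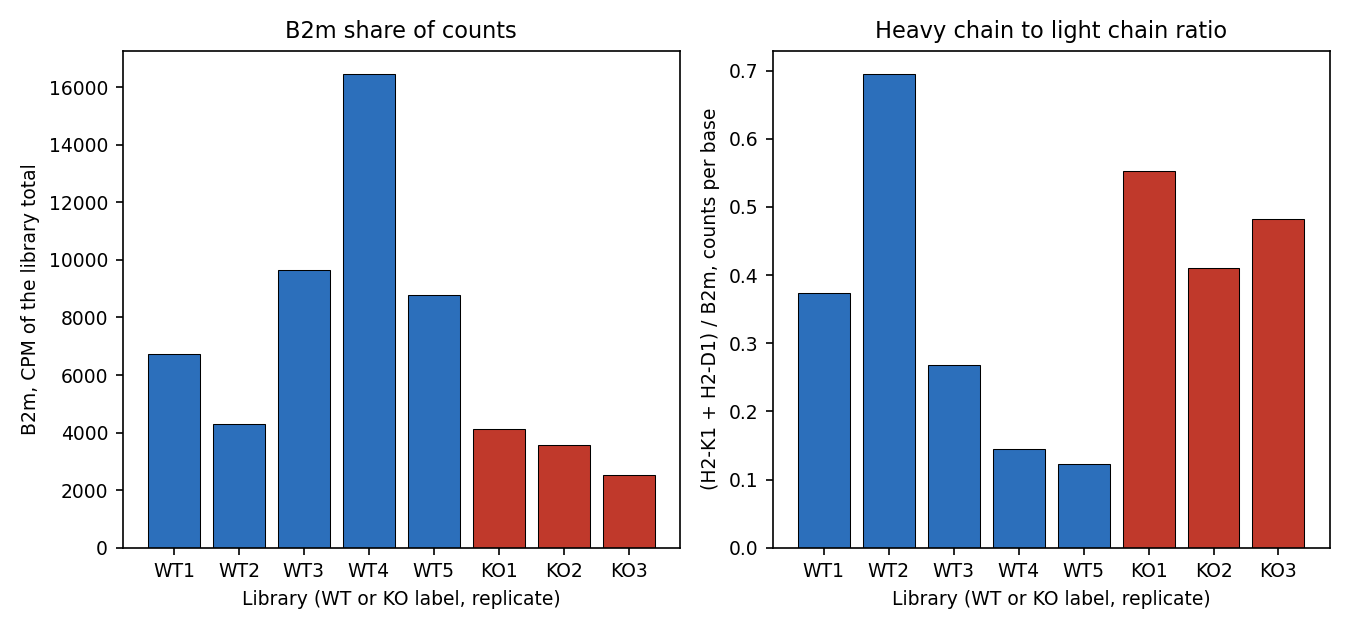
Left, B2m as CPM of the plain library total, and right, the ratio of H2-K1 plus H2-D1 to B2m in counts per base; each bar is 1 library, blue for WT-labelled and red for KO-labelled. B2m is lower in each KO-labelled library than in any WT-labelled one, and the ratio is lowest in WT-labelled replicates 4 and 5, at 0.145 and 0.123.

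Nlrc5 (ENSMUSG00000074151, chromosome 8, 94434356 to 94527272), the transactivator that drives class I genes in lymphocytes, had the narrowest WT-labelled range of the 10 on normalised CPM. Normalised CPM was 255, 334, 235, 278 and 286 in WT-labelled replicates 1 to 5, against 171, 101 and 101 in KO-labelled replicates 1 to 3. The highest WT-labelled library was 1.42 times the lowest, against 10.4 times for B2m (on plain CPM 3.28 and 3.81 times, and H2-D1 was narrowest at 2.60), and no KO-labelled library reached the WT-labelled range. Plain CPM overlapped, at 290.4, 361, 250.2, 110.1 and 194 against 230.1, 148 and 130.5. The log2 change was −1.16 (SE 0.53, adjusted p = 0.351 in edgeR, 0.00681 in DESeq2), −1.14 without WT-labelled replicates 4 and 5, and −0.51 with library totals.

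The 2 subunits of the peptide transporter were high in different libraries. Tap1 (ENSMUSG00000037321, chromosome 17, 34187553 to 34197225) had 137, 115, 79.3, 508 and 72.1 normalised CPM in WT-labelled replicates 1 to 5, against 113, 236 and 63.7 in KO-labelled replicates 1 to 3, which overlapped throughout (log2 change −0.41, SE 0.85, adjusted p = 0.8). Tap2 (ENSMUSG00000024339, chromosome 17, 34203527 to 34216321) had 45.6, 61.6, 79.4, 4.64 and 0.42 in WT-labelled replicates 1 to 5, against 21.95, 34.5 and 36.9 in KO-labelled replicates 1 to 3. On plain CPM Tap1 was at 155, 125, 84.4, 201 and 49.0 against 152, 345 and 82.5. Tap2 was then at 51.9, 66.6, 84.5, 1.84 and 0.28 against 29.6, 50.6 and 47.7. Both proteins are needed for transport, yet in WT-labelled replicates 4 and 5 Tap2 had 33 and 3 counts beside 3616 and 517 of Tap1. Per base, Tap1 stood at 128 and 201 times Tap2 in those libraries, and at 1.16 to 7.95 times in the other 6. These 2 libraries also had the fewest genes with at least 10 counts, 8250 and 9484 against 12491 to 14318, and the part of that in the Tap2 values was not tested. With WT-labelled replicates 4 and 5 left out, the 3 KO-labelled libraries were each below the remaining 3 in Tap2, and the log2 change went from −0.30 (SE 1.36, adjusted p = 0.915) to −0.97 (adjusted p = 0.455). It was 0.17 without WT-labelled replicate 3. The first 212 bases of Tap1 overlap Psmb9 on the opposite strand, and reads there cannot be assigned by strand.

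Tapasin and the trimming enzyme showed no direction. Tapbp (ENSMUSG00000024308, chromosome 17, 33915899 to 33929292), which bridges TAP and the empty heavy chain, had 168, 107, 55.8, 33.7 and 148 normalised CPM in WT-labelled replicates 1 to 5, against 142, 83.4 and 69.6 in KO-labelled replicates 1 to 3 (log2 change −0.06, SE 0.75, adjusted p = 0.969). Its WT-labelled replicate 4 was the lowest of all libraries, opposite to B2m, H2-D1 and H2-T23, and its change was positive without WT-labelled replicate 1 (0.20), WT-labelled replicate 5 (0.20), KO-labelled replicate 2 (0.03) or KO-labelled replicate 3 (0.12). Erap1 (ENSMUSG00000021583, chromosome 13, 74639568 to 74693201), the aminopeptidase that cuts peptides to fit the groove, had 40.7, 40.6, 11.9, 248 and 32.2 in WT-labelled replicates 1 to 5, against 77.9, 94.4 and 8.23 in KO-labelled replicates 1 to 3. On plain CPM Tapbp was at 192, 116, 59.4, 13.4 and 101 against 191, 122 and 90.2. Erap1 was then at 46.3, 43.9, 12.7, 98.2 and 21.9 against 105, 138 and 10.7. Its KO-labelled values lay on both sides of most WT-labelled ones (log2 change −0.31, SE 1.16, adjusted p = 0.895). Without WT-labelled replicate 4 the change of Erap1 was 0.94 and that of Tap1 0.45, both positive, and Erap1 was at 0.19 without KO-labelled replicate 3. The 95% intervals, −1.74 to 1.61 for Tapbp, −2.30 to 1.48 for Tap1, −3.33 to 2.73 for Tap2 and −2.91 to 2.29 for Erap1, leave room for large changes either way.

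Across the 8 libraries some pairs of members rose and fell together and others did not, and no clustering was run. Of 45 pairs, 31 had a positive Pearson r of log2 normalised CPM and 6 had an r of at least 0.8, with a median of 0.35. B2m with H2-D1 (0.93), H2-Q7 with Nlrc5 (0.91), Tap1 with Erap1 (0.89), B2m with H2-T23 (0.89), H2-D1 with H2-T23 (0.88) and H2-K1 with H2-D1 (0.84) were these 6. The lowest were H2-T23 with Tapbp (−0.60) and B2m with Tap2 (−0.57). On plain CPM 28 pairs were positive, the median was 0.12, and only H2-Q7 with Nlrc5 (0.90) and Tap1 with Erap1 (0.84) reached 0.8. B2m with H2-D1 was then at 0.71, B2m with H2-T23 at 0.61, and H2-D1 with H2-T23 and H2-K1 with H2-D1 at 0.55 and 0.545. The points share library, depth and scaling.

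The genes around class I gave 0 calls in edgeR. Of all genes tested, 56.8% had a negative log2 change, with a median of −0.42, or −0.87 for protein-coding genes. With library totals 45.3% were negative, with a median of 0.21. Without WT-labelled replicates 4 and 5, 53.5% were negative, with a median of −0.15. In the list of other class I and class I-like genes, 12 of 19 were tested, 8 lower and 4 higher, with a median log2 change of −0.91, which was −0.16 without WT-labelled replicate 4 and −0.12 with library totals, where 6 of 12 were lower. The 3 most abundant per kilobase were H2-Q6 at 448 ± 197 normalised CPM in the WT-labelled and 232 ± 187 in the KO-labelled libraries, H2-T22 at 137 ± 118 and 75.0 ± 9.36, and H2-Q4 at 99.2 ± 30.4 and 87.8 ± 26.9. All 8 peptide loading helpers had negative changes (median −1.65), and so they did without WT-labelled replicates 4 and 5 and with library totals. DESeq2 called 6 of them lower, where it called 10.0% of all genes lower. On normalised CPM 3 of 8 had no overlap between groups, where 4.49% of all genes had none, and on plain CPM 0 did, against 1.67%. Sec61b, part of the channel into the endoplasmic reticulum, had 302 ± 245 and 85.5 ± 49.4 (log2 change −1.82). The chaperone gene Hspa5 had 396 ± 191 and 124 ± 121 (−1.67), and Pdia3, a disulfide isomerase of the loading complex, 288 ± 312 and 37.3 ± 28.7 (−2.95). Without WT-labelled replicates 4 and 5 the changes of Sec61b, Hspa5 and Pdia3 were −0.63, −1.44 and −1.53. Pdia3 was at 1.21 normalised CPM in WT-labelled replicate 2, below each KO-labelled library, and at 804 in WT-labelled replicate 4.

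Of 11 genes of peptide generation 10 were tested and all 10 were negative (median log2 change −1.88). Of all genes 56.8% were negative, and the protein-coding median was −0.87. Leaving out WT-labelled replicates 4 and 5, the median was −0.86 and 8 of 10 were negative. Without replicate 4 alone it was −0.94, and with library totals −0.78, with 7 of 10 negative. The proteasome activator genes Psme2 and Psme1 had 992 ± 1279 and 206 ± 15.5, and 499.9 ± 585 and 80.1 ± 89.9. The immunoproteasome gene Psmb8 had 797 ± 811 and 133 ± 61.3. The highest Psme2 level, 3250.5, was that of WT-labelled replicate 4, and its log2 change of −2.27 became −0.57 once both WT-labelled replicates 4 and 5 were dropped.

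The 12 genes of class I transcription were all tested and all had negative changes (median −0.98), where 56.8% of all genes did and the protein-coding median was −0.87. With library totals 10 of 12 were negative (median −0.30), where 45.3% of all genes were. Creb1 was at 144 ± 162 and 80.3 ± 23.1 (log2 change −0.84, and 0.16 without WT-labelled replicate 5), Irf2 at 257 ± 191 and 86.2 ± 35.6, and the NF-kappaB subunit gene Nfkb1 at 267 ± 85.7 and 145 ± 93.9. Of 11 genes of interferon receptors and signalling, 7 had negative and 4 positive changes, beside 56.8% of all genes that were negative. Their median was −0.83, not below the protein-coding median of −0.87, and it was −0.33 with library totals. The kinase gene Jak1 had 1062 ± 745 and 249.8 ± 195 with no overlap between groups on normalised CPM, though on plain CPM KO-labelled replicate 1 (641) was above WT-labelled replicates 2, 3 and 5 (544, 629 and 614) (log2 change −2.09, SE 0.74, adjusted p = 0.325 in edgeR and 0.0142 in DESeq2). Ifngr1, a chain of the interferon-gamma receptor, had 221 ± 245 and 51.2 ± 22.3, also with no overlap, though on plain CPM WT-labelled replicate 5 (66.4) was below KO-labelled replicates 1 and 2 (98.5 and 76.4).

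MHC class II genes are hardly made by mouse T cells and made in quantity by B cells. Of 10 genes 6 were tested, 5 lower and 1 higher, the last being H2-DMb2 (log2 change 2.36, adjusted p = 0.356). The 3 most abundant per kilobase, Cd74, H2-Aa and H2-Ab1, were highest in WT-labelled replicate 4. Cd74 stood at 3088 normalised CPM in that library and at 31.3 to 201 in the other WT-labelled and 5.53 to 55.1 in the KO-labelled libraries. H2-Aa stood at 692 there and H2-Ab1 at 847, against at most 141 and 21.7 elsewhere. On plain CPM Cd74, H2-Aa and H2-Ab1 were at 1223, 274 and 335 there, against at most 137, 96.2 and 23.1 elsewhere. On normalised CPM, B2m, H2-K1, H2-D1, H2-T23, Tap1 and Erap1 were highest in this library too; on plain CPM this held for B2m, H2-D1 and H2-T23, while H2-K1 was highest in WT-labelled replicate 2 (4555) and Tap1 (345) and Erap1 (138) in KO-labelled replicate 2. The part that other cells have in these values was not tested. The B2m change without this library is given above.

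**Figure D4:**
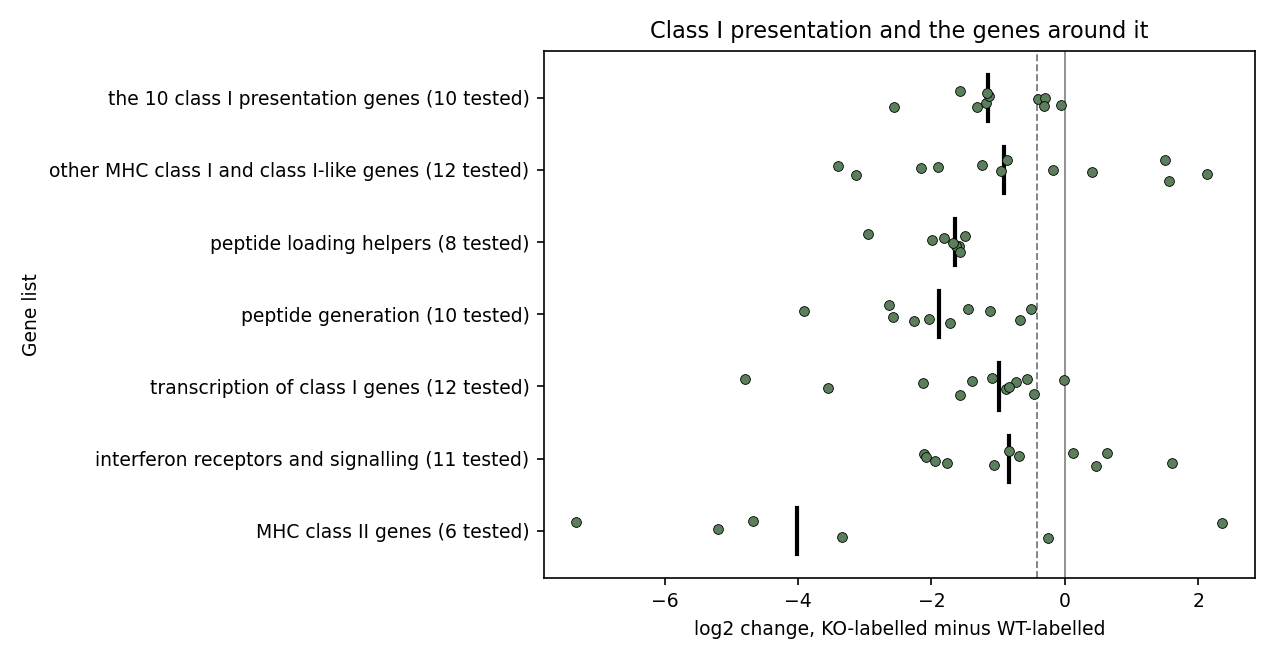
The log2 change of each tested gene, KO-labelled minus WT-labelled, in the 10 class I presentation genes and in 6 lists around them; points are genes, black bars the list medians, the dashed line the median of all genes tested (−0.42). Peptide loading helpers, peptide generation and class I transcription genes all lie below 0, and the class II list spreads widest. The median of protein-coding genes (−0.87) is not drawn.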

How the data were processed

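Treg cells were sorted by flow cytometry and total RNA was made into libraries with SMART-Seq v4, per the labels' protocols. This kit keeps no strand, so reads cannot be told apart by strand where genes overlap. The authors deposited expected counts for each gene. Tools listed in the submitters' processing notes, with no versions or roles, are RSEM, StringTie, HISAT2, fastp and DESeq2, and the build is mm10. Which annotation was counted is not stated here. Gene lengths came from the deposited table and coordinates from GENCODE M21 (GRCm38), in which 51884 of 57180 genes were found by identifier. The authors' group mean columns were not used, and 0 columns of other samples were present. All 114 symbols of the members, lists and markers were found. Groups and replicate numbers came from the sample titles.

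Counts were rounded. In R 4.3.3, edgeR 4.0.16 (filterByExpr, minimum count 10, TMM, quasi-likelihood, two-sided, Benjamini-Hochberg) compared KO with WT over all 8 libraries without covariates. DESeq2 1.42.0, limma 3.58.1 (voom with quality weights) and the settings in the closing section were alternatives. The procedure was also run on simulated counts with 1 fixed dispersion for all genes and no scaling differences between libraries. That case is simpler than these libraries, so the run does not bear on the results here. The heavy to light chain ratio used a pseudocount of 0.5 counts. No replicate pair agreed within sampling noise (chi-square per degree of freedom at least 66.8). Intervals cover 95%, and reads carry no molecular identifiers.

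The members and lists were chosen with earlier results of these data known. Named were the 10 members, the 3 tested genes per list with the highest level per kilobase, and for B2m and Nlrc5 the 5 protein-coding genes of mean log2 CPM at least 3 with the highest Pearson r; some items under this rule are not reported here. Markers and list genes named beside these were chosen after their values were seen.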

Additional observations from a re-analysis of the deposited data

Results flagged for a closer look

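In the 5 WT-labelled libraries, 29 sets of normalised CPM or ratios were checked for 1 value apart from the other 4. The rule was a gap over range above Dixon's critical value of 0.71. About 1 in 20 independent sets of normal values pass it, but these sets share the same 5 libraries, so that share is no yardstick here. In 13 of the 29 sets 1 value stood apart. Of these, 12 were high values of replicate 4: B2m (41521), H2-D1 (5480.0), H2-T23 (1871), Tap1 (508), Erap1 (248), Psme2 (3250.5), Psme1 (1541), Jak1 (2347), Ifngr1 (659), Cd74 (3088), H2-Aa (692) and H2-Ab1 (847). The next values were 12942 for B2m, 1348 for H2-D1 and 436 for H2-T23. The other was Creb1 in replicate 5 (421). H2-K1, H2-Q7, Tap2, Tapbp, Nlrc5 and the heavy to light chain ratio gave no such value. Normalised CPM of replicate 4 carries a TMM factor of 0.40. On plain CPM 4 of the 28 genes and 0 of the 10 members had such a value: Psme2, Cd74 and H2-Ab1 in replicate 4 and Irf2 in replicate 5.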

How the results depend on the processing

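Leaving out 1 library at a time gave 0 calls among all genes and 0 among the 10 members, a median log2 change of the members of −1.5004 to −0.69 (the latter without WT-labelled replicate 4) and a heavy to light chain difference of 0.60 to 1.22; with every heavy chain gene in the ratio, a choice made after seeing the data, it was 0.88. B2m, the 4 heavy chain genes and Nlrc5 stayed negative, while Tapbp (−0.49 to 0.20), Tap1 (−1.06 to 0.45), Tap2 (−0.59 to 0.17), Erap1 (−0.80 to 0.94) and Creb1 (−1.16 to 0.16) did not keep their sign. DESeq2 called 2421 genes and 4 members, and limma-voom with quality weights 22 genes and 0 members. One gene, no member, was called with thinning, upper quartile factors, library totals, a minimum mean of 5 CPM or no low-count filter (1 in each). The members' median was −0.34 with upper quartile factors and −0.29 with library totals. Changes turned positive as follows, and the cause was not tested beyond the construction of each setting. With upper quartile factors Tap1 was 0.60, Tap2 0.35, Tapbp 0.63, Erap1 0.71, H2-T22 0.073 and H2-Q4 0.64. With library totals they were 0.66, 0.061, 0.49, 0.93, 0.093 and 0.46. At a mean of at least 5 CPM Tap1 was 0.014, Tapbp 0.20, Erap1 0.10 and H2-Q4 0.17. After thinning Tap1 was 0.19, Tap2 0.059, Tapbp 0.23, Erap1 0.26 and H2-Q4 0.24. Among protein-coding genes without receptor genes Tap1 was 0.22, Tap2 0.12, Tapbp 0.35, Erap1 0.31 and H2-Q4 0.36. With limma-voom Tap1 was 0.34, Erap1 0.70, H2-Aa 0.70 and H2-Ab1 0.27. Without the libraries named FY (WT-labelled replicates 2 and 3) Tap2 was 1.13 and H2-Q4 0.058. Without WT-labelled replicates 4 and 5 Tap1 was 0.37, Erap1 0.99 and H2-Aa 1.495.

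The labels tie same-numbered libraries by a number only. Their deviations from the group means correlated at 0.02, 0.02 and 0.05, and not every library correlated best with its own number. Other differences between libraries enter these values too, so they cannot show whether same-numbered libraries came from 1 animal. With the replicate block over replicates 1 to 3, 0 genes and 0 members were called, the members' median was −0.90, and H2-T23 was 0.016, Tap1 0.16, Erap1 0.58 and H2-Aa 1.32. Totals of 4.31 to 17.98 M limit genes such as Tap2, at 3 counts in 1 library. B2m was negative in every setting run, from −3.22 to −1.26.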

Other observations

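The genes whose levels followed B2m most closely over the 8 libraries, among 5532 protein-coding genes searched, were not class I genes. They were S100a6 (Pearson r 0.99), Fkbp3 (0.99), the cyclophilin A gene Ppia (0.99), Rbm3 (0.98) and Dnajc8 (0.98). Ppia is widely made and highly abundant, with 20389 normalised CPM in WT-labelled replicate 4 and 1104 in KO-labelled replicate 3. Nlrc5 was followed most closely by Trmt13, Rasa1, Rbmx2, Adgre5 and Srsf6 (r 0.97 to 0.98). These correlations rest on 8 points that share library, depth and scaling.

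Among class I-like genes, Mr1, which presents vitamin metabolites, had a log2 change of 2.12 (adjusted p = 0.6) and Hfe, a regulator of iron uptake, of 1.56 (adjusted p = 0.383). Cd1d1, which presents lipids, had −3.40 (adjusted p = 0.39). None passed edgeR's test.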
